A study of Mus musculus with 10 samples.

Results

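Cytochrome P450 genes were taken as every gene of the deposited table whose symbol starts with Cyp followed by a digit, without Cyp24a1, Cyp27b1 and Cyp51, which act in vitamin D and cholesterol metabolism. P450 genes under other symbols, such as the thromboxane synthase gene Tbxas1, fall outside this symbol pattern. The pattern matched 34 symbols, 2 of them (Cyp24a1 and Cyp51) were left out, and 32 genes of the 13299 listed remained. They were compared between whole kidneys of Rragc S74N/+ and Rragc +/+ mice, all labelled as old mice of 1.5 years, with 5 samples per genotype. Rragc encodes RagC, a small GTPase that relays amino acid sufficiency to the kinase complex mTORC1. The S74N knock-in allele was edited by CRISPR into the endogenous locus, it is expressed from its own promoter in every cell type, and the animals are heterozygous, so no difference can be placed in one kidney cell type from the genotype alone. The mice were C57BL/6, the labels name no treatment, and the wild-type kidneys served as the control. Nothing in the labels states that each sample came from a separate mouse, and p-values measure only the spread between these samples.

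P450 enzymes are heme proteins, most of which insert an oxygen atom into fatty acids, steroids, retinoids or drugs. Those of the endoplasmic reticulum mostly receive electrons through P450 oxidoreductase (Por). In the kidney they are made mostly by proximal tubule cells. Enzymes of the Cyp2c and Cyp2j subfamilies turn arachidonic acid into epoxides, whereas those of the Cyp4a subfamily hydroxylate fatty acids at the far end of the chain, and both kinds of product act on renal blood vessels and salt transport. Several of these genes are higher in male than in female mice, and Cyp4a10 and Cyp4a14 are classical targets of the fatty acid receptor PPARα.

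Stretches of promoter are shown for 4 genes because Cyp2d9 and Cyp2d26 lie on the same chromosome and had differences of opposite sign, whereas Cyp2j13 and Cyp2j5 lie on one chromosome and had differences of the same sign. Each runs 5′ to 3′ along the strand of the gene, over the part of the RefSeq promoter that ends 56 bases before the annotated start, with build GRCm38.p6. That is not the build to which the reads were aligned (GRCm39). Capitals mark a motif that was searched.
Cyp2d9, chr15:82452127-82452321, plus strand: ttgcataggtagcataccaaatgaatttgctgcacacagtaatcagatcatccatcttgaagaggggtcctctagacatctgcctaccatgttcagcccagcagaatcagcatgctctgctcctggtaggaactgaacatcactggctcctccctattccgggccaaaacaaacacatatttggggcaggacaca
Cyp2d26, chr15:82794301-82794495, minus strand: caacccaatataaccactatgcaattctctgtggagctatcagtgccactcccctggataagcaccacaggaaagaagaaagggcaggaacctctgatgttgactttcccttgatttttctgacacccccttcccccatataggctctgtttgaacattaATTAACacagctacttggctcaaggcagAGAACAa
Cyp2j13, chr4:96077603-96077797, minus strand: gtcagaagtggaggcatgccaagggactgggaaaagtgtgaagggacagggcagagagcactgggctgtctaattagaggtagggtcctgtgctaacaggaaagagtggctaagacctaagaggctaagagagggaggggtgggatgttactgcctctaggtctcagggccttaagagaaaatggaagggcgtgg
Cyp2j5, chr4:96664175-96664369, minus strand: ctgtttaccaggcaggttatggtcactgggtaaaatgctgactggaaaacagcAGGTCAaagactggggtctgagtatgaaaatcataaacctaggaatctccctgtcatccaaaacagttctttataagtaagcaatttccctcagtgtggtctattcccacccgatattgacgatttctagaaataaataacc
The capitals in Cyp2d26 are the letters ATTAAC, 90 bases before the start, which are the reverse complement of the HNF1 motif GTTAAT, and the androgen and glucocorticoid receptor motif AGAACA, 62 bases before it. In Cyp2j5 they are the nuclear receptor motif AGGTCA, 197 bases before the start. The stretches of Cyp2d9 and Cyp2j13 held none of the 6 motifs searched. Both strands were read, in the same stretch of 21 promoter entries of 20 P450 genes and of 32851 promoter entries in all. GTTAAT was in 3 of the 21 (Cyp2a4, Cyp2a5, Cyp2d26) and in 5.18% of all entries, AGAACA in 3 (Cyp2d26, Cyp2j6, Cyp4b1) and in 13%, AGGTCA in 2 (Cyp2f2, Cyp2j5) and in 11.1%, TTCNNNGAA in 2 (Cyp2j11, Cyp4b1) and in 5.64%. CACGTG, the core of the motif bound by TFEB, a transcription factor that mTORC1 keeps out of the nucleus, was in 1 of the 21 (Cyp4v3) and in 4.17% of all entries. The direct repeat of the nuclear receptor motif, AGGTCA with any base between its copies, was in 0 of the 21 and in 0.0244% of all entries. A match is a run of letters and not a bound site, and a window without one says nothing of the factor.

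Transcripts were measured by 3′ mRNA sequencing. Only the 3′ end of a transcript is counted, and a long transcript gives no more reads than a short one. Levels of different genes are set side by side on that basis, but reads from 3′ sequence shared between genes can still affect them. The unit throughout is the normalized count, a read count divided by a size factor of its sample. In the 8 samples whose read numbers could be recovered, depth lay between 4488493 and 5797251 reads. Normalized counts summed to 4576639 to 5087152 per sample in Rragc +/+ and to 4473981 to 4847611 in Rragc S74N/+ kidneys. All 24 proximal tubule markers searched were present, with summed levels of 72413 to 90112 in Rragc +/+ and 67158 to 92277 in Rragc S74N/+ kidneys, and none of 9 adrenal cortex markers was listed. Of the hepatocyte markers 6 of 9 were listed, with summed levels of 271 to 658 in Rragc +/+ and 621 to 868 in Rragc S74N/+ kidneys, and albumin (Alb) at 10.1 to 47.0 over all samples. In whole tissue, fewer cells of a type and less RNA per cell cannot be told apart.

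All 32 P450 genes passed the filter on low values, and 5 of them changed between genotypes. Cyp2j13, Cyp2d9 and Cyp4a10 were higher in Rragc S74N/+ kidneys, Cyp2u1 and Cyp2d26 were lower, and 27 did not pass the test (limma, Benjamini-Hochberg adjusted p under 0.05 over 13236 genes). The 5 calls were 15.6% of the P450 genes, where 6.03% of all tested genes were called. The 3 higher calls were 9.38%, beside 3.45% of all genes, and the 2 lower calls were 6.25%, beside 2.58%. An unadjusted p under 0.05 was found for 11 of the 32, beside 25.4% of all genes. The values of both groups did not overlap for 2 of the 32, Cyp2j13 and Cyp2u1, beside 8.16% of all genes. The log2 fold changes were positive for 16 and negative for 16 of the P450 genes, and their median was -0.00, beside -0.01 over all tested genes. Without Rragc S74N/+ replicate 1, a kidney described further on, 6 P450 genes were higher and 2 lower. Without Rragc +/+ replicate 2, 1 was higher (Cyp2j13) and 1 lower (Cyp2u1).

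**Figure D1:**
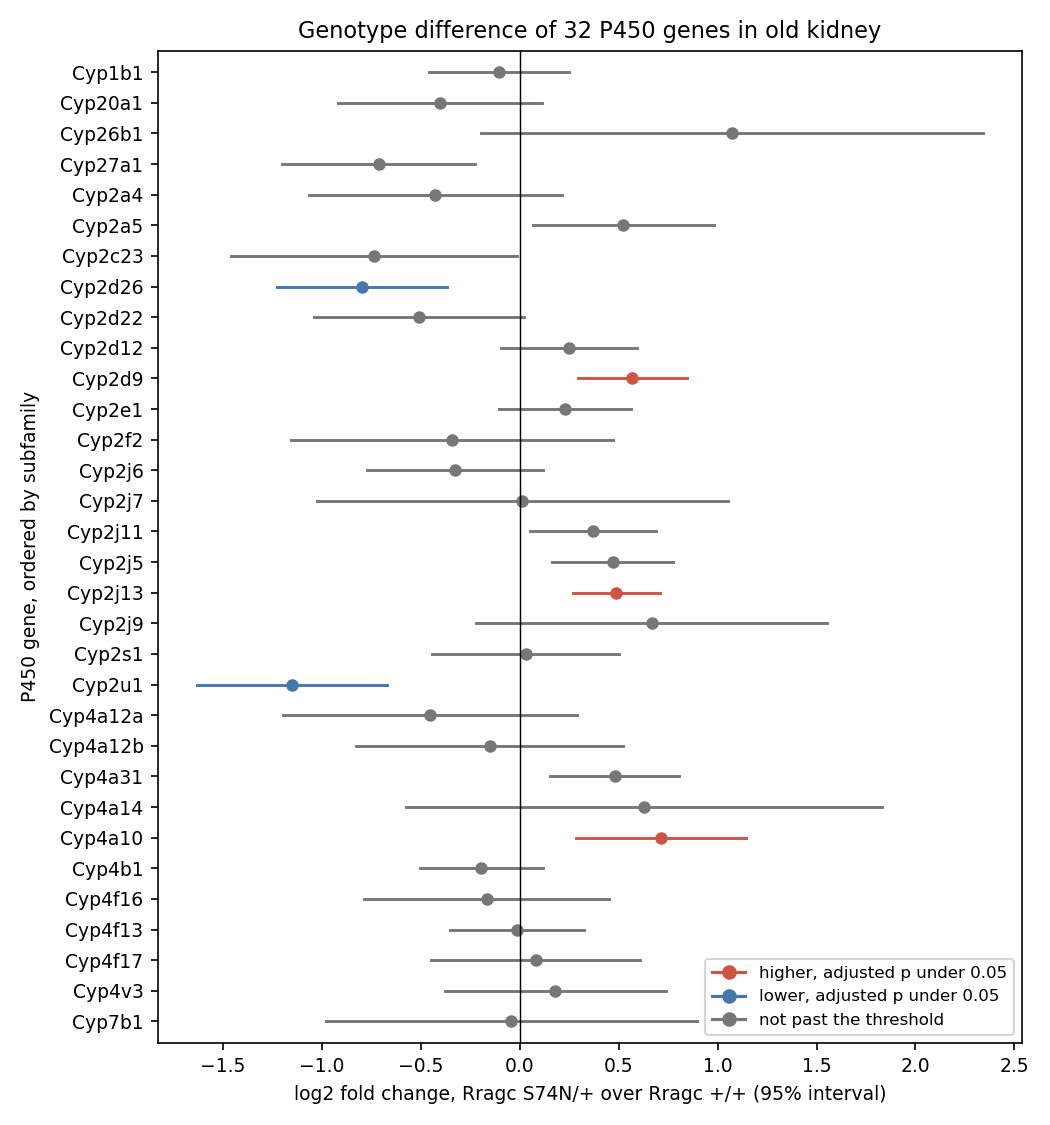
Log2 fold change of each of the 32 P450 genes, Rragc S74N/+ over Rragc +/+ (x axis; positive is higher in Rragc S74N/+), with the 95% interval as a line, ordered by subfamily. Red and blue mark the 3 genes higher and the 2 lower at an adjusted p under 0.05, and the widest intervals belong to genes of low or scattered level such as Cyp26b1 and Cyp4a14.

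P450 transcripts were unevenly spread over the genes. Cyp2j5, the most abundant, averaged 8841 normalized counts over the 10 samples and made up 36.7% of the P450 sum. It was followed by Cyp4b1 (2184), Cyp4a31 (1923), Cyp4a12a (1832), Cyp4a10 (1576), Cyp2d12 (1566), Cyp2d9 (1432), Cyp2e1 (1411), Cyp2j13 (979) and Cyp2j11 (472). From Cyp4b1 down to Cyp2j13 the values over samples overlapped between neighbours in that order, whereas the lowest Cyp2j5 value (6522) lay above every value of the other genes and the highest Cyp2j11 value (652) below every Cyp2j13 value. These 10 genes held 92.3% of the sum, and their fold changes were positive for 8 and negative for 2 (Cyp4b1 and Cyp4a12a). All 3 higher calls were among them. A further 15 genes averaged under 100 normalized counts, with 6 positive and 9 negative fold changes and 1 call, the lower Cyp2u1.

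**Figure D2:**
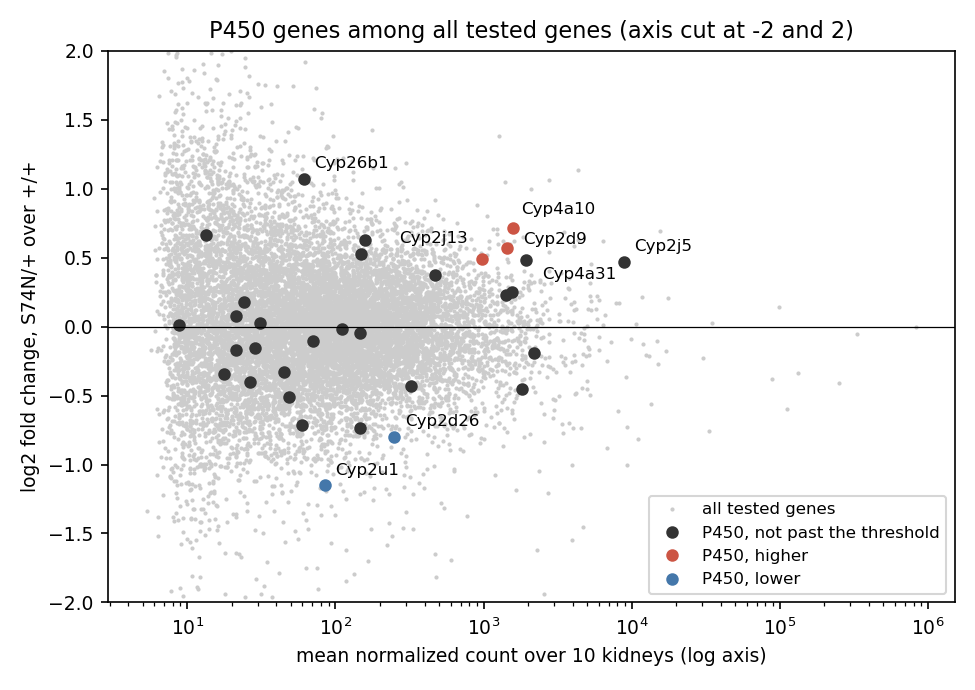
Mean normalized count over 10 kidneys (x axis, log scale) against the log2 fold change, Rragc S74N/+ over Rragc +/+ (y axis, cut at -2 and 2), for all tested genes in grey and the 32 P450 genes as large points. The P450 genes called higher lie at means of 979 to 1576 and those called lower at 85.1 and 250.6.

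Summed over the 32 genes, P450 transcripts came to 20154, 21090, 19638, 23550 and 23296 normalized counts in Rragc +/+ replicates 1 to 5 and to 21462, 25384, 25918, 32125 and 28044 in Rragc S74N/+ replicates 1 to 5. The means were 21546 ± 1793 (SD, n = 5) and 26587 ± 3904 (SD, n = 5), and the groups overlapped through Rragc S74N/+ replicate 1. As a share of all normalized counts the sums were 0.401% to 0.465% in Rragc +/+ and 0.467% to 0.663% in Rragc S74N/+ kidneys. The groups were separated by a narrow gap. Transcripts of the mitochondrial genome took 35.8% to 38.0% and 33.8% to 36.8% of the normalized counts. With those genes left out, the P450 share was 0.641% to 0.746% and 0.713% to 1.05%, and the groups overlapped. No test is given for a sum over genes.

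**Figure D3:**
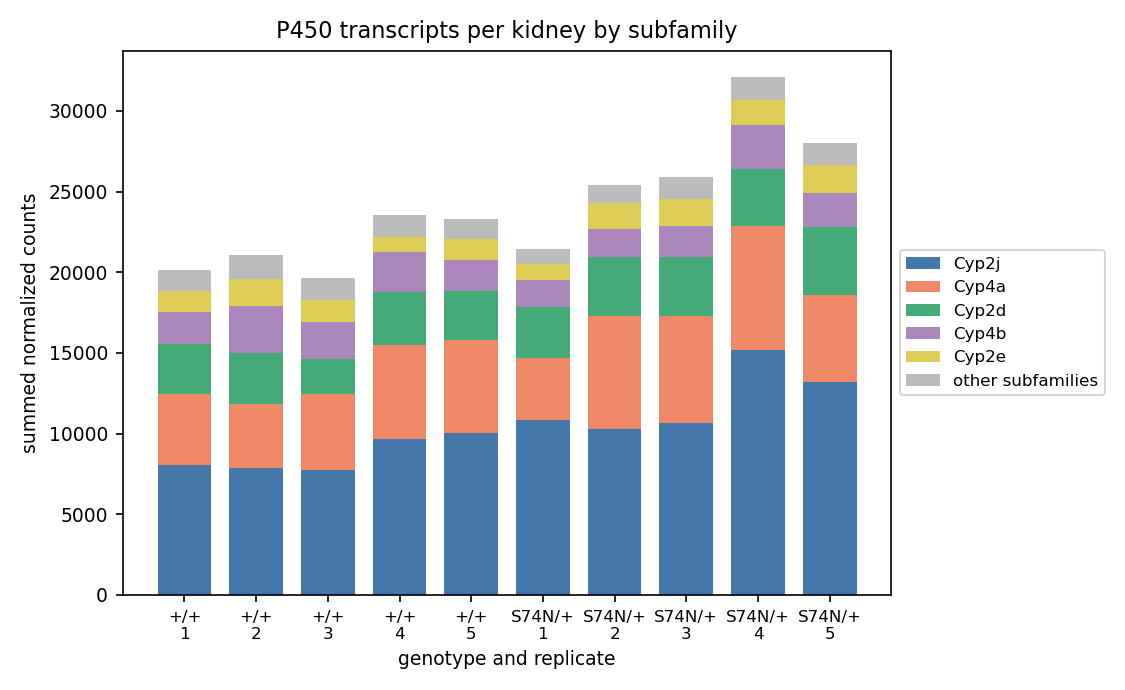
Summed normalized counts of the 32 P450 genes in each kidney (y axis, from 0), stacked by subfamily, with Rragc +/+ replicates 1 to 5 and then Rragc S74N/+ replicates 1 to 5 on the x axis. The Cyp2j block is the tallest in every kidney, and the totals run from 19638 to 23550 in Rragc +/+ and from 21462 to 32125 in Rragc S74N/+.

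The Cyp2j subfamily, arachidonic acid epoxygenases, had 6 genes, of which 1 was higher and 5 did not pass the test. Its sum was 8073, 7879, 7773, 9656 and 10061 in the Rragc +/+ kidneys and 10813, 10259, 10687, 15201 and 13200 in the Rragc S74N/+ kidneys. Every Rragc S74N/+ sum lay above every Rragc +/+ sum, and Cyp2j5 supplied most of it. Cyp2j13, a gene expressed mainly in kidney, stood at 874, 856, 772, 750 and 820 normalized counts in Rragc +/+ replicates 1 to 5. In Rragc S74N/+ replicates 1 to 5 it stood at 983, 1073, 1178, 1240 and 1248. The groups did not overlap, and the means were 814 ± 53.0 and 1145 ± 114 (SD, n = 5 each). The log2 fold change was 0.49 (SE 0.10, 95% interval 0.27 to 0.71, limma adjusted p = 0.0138), and it kept its call without any 1 sample (adjusted p 0.0021 to 0.0441).

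Cyp2j5, the main renal epoxygenase of this subfamily, stood at 6712, 6522, 6650, 8306 and 8769 in Rragc +/+ and at 9233, 8681, 8933, 13259 and 11348 in Rragc S74N/+ kidneys. The means were 7392 ± 1061 and 10291 ± 1968 (SD, n = 5 each), and the groups overlapped only in that Rragc S74N/+ replicate 2 lay below Rragc +/+ replicate 5. The log2 fold change of 0.47 (SE 0.14, 95% interval 0.16 to 0.77) did not pass the test (limma adjusted p = 0.0631). It passed without Rragc S74N/+ replicate 1 (adjusted p = 0.0257). The numbers in the sample titles fall below 200 for replicates 1 to 3 of each group and above 200 for replicates 4 and 5, and the labels name no batch. Cyp2j5 was higher in the second range in both genotypes, and within each range the groups did not overlap, with 6522 to 6712 against 8681 to 9233 below 200 and 8306 to 8769 against 11348 to 13259 above it. Each genotype has only 3 samples below 200 and 2 above it, and the share of all genes without overlap within both ranges was not counted. With the range as a second term, Cyp2j5 and Cyp4a31 passed as well, and 5 P450 genes were higher. Cyp4a31 did not overlap below 200 (1246 to 1483 against 1986 to 2228) but did above it (1814 to 2117 against 1971 to 2996). Overlap within a range was also seen for Cyp4a10 above 200 and for Cyp2d26 and Cyp2d9 below it. As a share of the P450 sum, Cyp2j5 took 30.9% to 37.6% in Rragc +/+ and 34.2% to 43.0% in Rragc S74N/+ kidneys, with the highest share in Rragc S74N/+ replicate 1.

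The other Cyp2j genes did not pass the test. Cyp2j11 stood at 414, 430, 294, 534.5 and 397 against 525, 432, 502, 652 and 543 normalized counts, with a log2 fold change of 0.37 (95% interval 0.05 to 0.69, limma adjusted p = 0.138). The remaining 3 averaged under 50 normalized counts. Cyp2j6 had a log2 fold change of -0.33 (-0.77 to 0.12, limma adjusted p = 0.344), Cyp2j9 of 0.67 (-0.22 to 1.56, 0.336) and Cyp2j7, the lowest of all members, of 0.01 (-1.03 to 1.05, 0.992). Of the 451 windows of 50 bases in the last 500 bases of each transcript, 0 were shared with another gene for Cyp2j5, Cyp2j13 and Cyp2j11.

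The Cyp2d subfamily, hydroxylases of drugs and steroids, had 4 genes that went both ways. Cyp2d9, a steroid hydroxylase known from male mouse liver, stood at 1328, 1111, 967, 1248 and 1095 normalized counts in Rragc +/+ and at 1278, 1674, 2022, 1808 and 1790 in Rragc S74N/+ kidneys. Only Rragc S74N/+ replicate 1 fell within the Rragc +/+ range. The means were 1150 ± 141 and 1714 ± 274 (SD, n = 5 each), and the log2 fold change was 0.57 (SE 0.13, 95% interval 0.29 to 0.84, limma adjusted p = 0.0195). The call was lost without Rragc +/+ replicate 2 (adjusted p = 0.0547) and without Rragc S74N/+ replicate 5 (0.0541).

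Cyp2d26 stood at 366, 301, 215, 430 and 281 normalized counts in Rragc +/+ and at 242, 204, 190, 164 and 115 in Rragc S74N/+ kidneys. Its groups overlapped through Rragc +/+ replicate 3 and Rragc S74N/+ replicate 1. The means were 318 ± 82.3 and 183 ± 47.5 (SD, n = 5 each), and the log2 fold change was -0.80 (SE 0.20, 95% interval -1.23 to -0.37, limma adjusted p = 0.0309). That call was lost in 9 of the 24 alternatives, 5 of which left out 1 sample (Rragc +/+ replicate 1, 2 or 4, or Rragc S74N/+ replicate 4 or 5), with adjusted p between 0.0051 and 0.0826 when single samples were left out. Within the title number ranges, its log2 difference was -0.44 below 200 and -1.33 above it. The same differences were 0.53 and 0.62 for Cyp2d9, 0.37 and 0.67 for Cyp2j13 and 0.88 and 0.47 for Cyp4a10. The ratio of Cyp2d9 to Cyp2d26, examined after the values of both had been seen and therefore given without a test, was 3.63, 3.70, 4.50, 2.90 and 3.90 in Rragc +/+ and 5.27, 8.22, 10.6, 11.02 and 15.6 in Rragc S74N/+ kidneys. The lowest ratio of the mutant kidneys was again that of replicate 1, and it still lay above every wild-type ratio. This ratio sets a gene called higher over a gene called lower, so its separation follows from those calls. The other ratios that were computed overlapped between genotypes, and not every pair of genes within a subfamily was computed. Cyp2d9 over Cyp2d12 was 0.65 to 1.01 against 0.79 to 1.45, and Cyp4a10 over Cyp4a31 was 0.62 to 0.81 against 0.68 to 1.18.

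Cyp2d12 stood at 1326, 1709, 958, 1556 and 1630 against 1583, 1717, 1390, 1523 and 2271 normalized counts, and its log2 fold change of 0.25 (95% interval -0.09 to 0.59) did not pass the test (limma adjusted p = 0.355). Cyp2d22, often treated as the mouse counterpart of the human drug-metabolizing CYP2D enzyme, stood at 40.8 to 74.95 against 23.4 to 52.2, with a log2 fold change of -0.51 (-1.04 to 0.02, adjusted p = 0.215). The Cyp2d sum ran from 2182 to 3305 in Rragc +/+ and from 3156 to 4208 in Rragc S74N/+ kidneys. Cyp2d genes resemble each other, and 23.9% of the 3′ windows of Cyp2d9, 25.7% of those of Cyp2d26 and 19.5% of those of Cyp2d12 occurred unchanged in another gene. Cyp2d9 and Cyp2d12 shared 11.8% with each other. How the authors' counting treated such reads was not tested, so levels of these 3 genes are uncertain to that extent. The same holds for other genes with shared windows, among them Cyp2a4 (44.3%), Cyp4a12a (37%) and Cyp2e1 (18.8%).

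**Figure D4:**
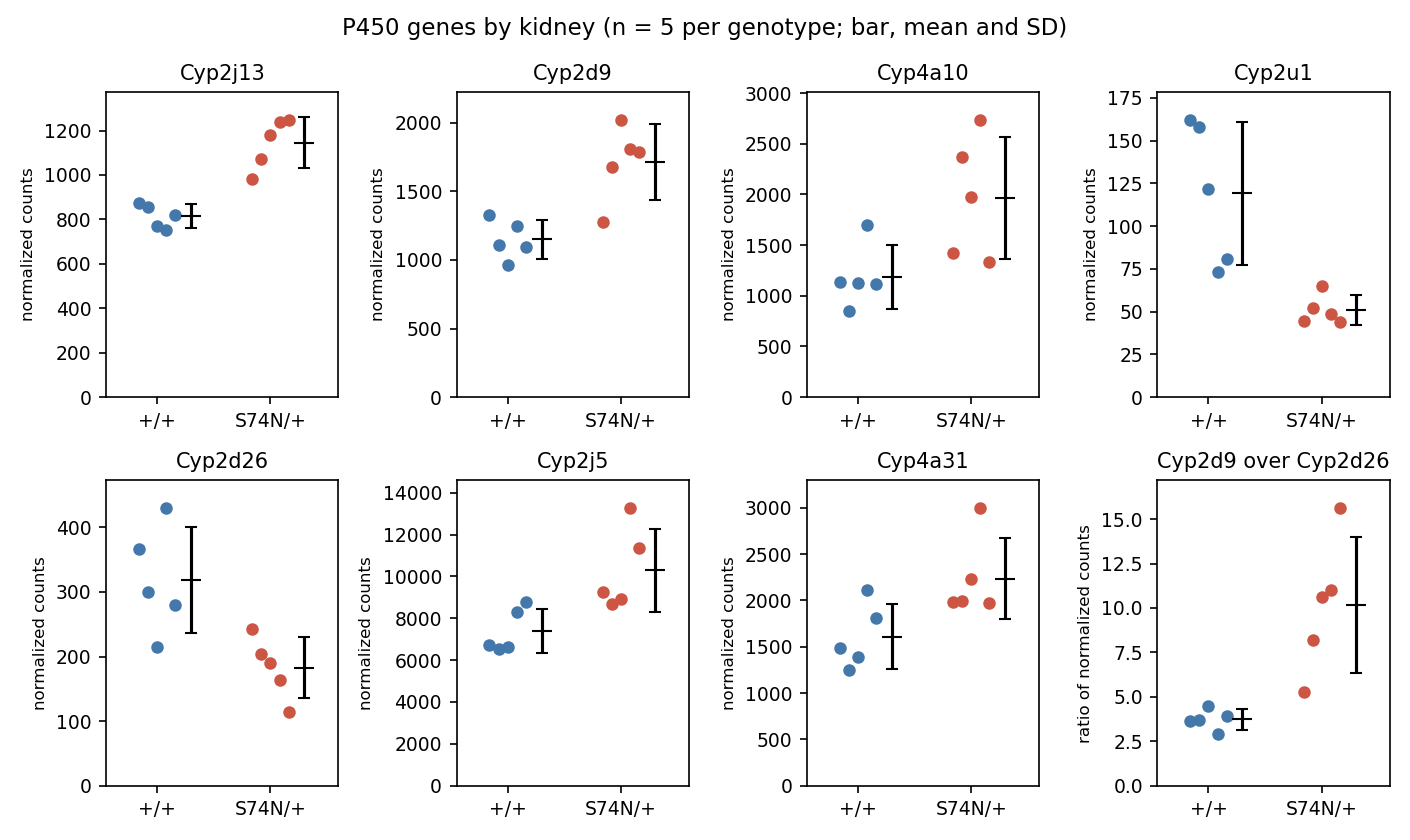
Normalized counts of the 5 P450 genes called and of Cyp2j5 and Cyp4a31 in each kidney, and the ratio of Cyp2d9 to Cyp2d26 (y axes from 0), with Rragc +/+ in blue and Rragc S74N/+ in red, replicates 1 to 5 from left to right and bars for mean and SD. Only Cyp2j13, Cyp2u1 and the ratio, which sets a gene called higher over a gene called lower, show groups that do not overlap.

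The Cyp4a subfamily, fatty acid hydroxylases, had 5 genes, of which 1 was higher and 4 did not pass the test. Cyp4a10 stood at 1133, 847, 1125, 1703 and 1116 normalized counts in Rragc +/+ and at 1427, 2369, 1974, 2738 and 1331 in Rragc S74N/+ kidneys. Rragc S74N/+ replicates 1 and 5 lay below Rragc +/+ replicate 4. The means were 1185 ± 314 and 1968 ± 602 (SD, n = 5 each), and the log2 fold change was 0.71 (SE 0.20, 95% interval 0.28 to 1.14). It passed narrowly (limma adjusted p = 0.0481), and the call was lost in 13 of the 24 alternatives, 7 of which left out 1 sample (adjusted p 0.0095 to 0.138 over all 10 such fits). It kept its call only without Rragc +/+ replicate 4, Rragc S74N/+ replicate 1 or Rragc S74N/+ replicate 5 among these.

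Cyp4a31 stood at 1483, 1246, 1393, 2117 and 1814 normalized counts in Rragc +/+ and at 1986, 2000, 2228, 2996 and 1971 in Rragc S74N/+ kidneys. Only Rragc +/+ replicate 4 reached the mutant range. The log2 fold change of 0.48 (SE 0.15, 95% interval 0.15 to 0.81) did not pass the test (limma adjusted p = 0.0728), but did without Rragc S74N/+ replicate 1 or without Rragc +/+ replicate 4. Cyp4a14 spanned 66.7 to 110 in Rragc +/+ and stood at 24.2, 452, 237, 326 and 70.9 in Rragc S74N/+ kidneys, so that the mutant group held the 3 highest values and the lowest. Its log2 fold change was 0.63 (-0.58 to 1.83, adjusted p = 0.517). Without Rragc S74N/+ replicate 1 Cyp4a14 was higher, with a log2 fold change of 1.26 (adjusted p = 0.0274).

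Cyp4a12a, the main source of hydroxyeicosatetraenoic acid in male mouse kidney and an androgen-dependent gene, stood at 1636, 1753, 2025, 1858 and 2712 against 405, 2159, 2163, 1592 and 2015 normalized counts. Its log2 fold change was -0.45 (-1.20 to 0.29, limma adjusted p = 0.440) and became 0.00 without Rragc S74N/+ replicate 1. Cyp4a12b, its near copy, had -0.15 (-0.83 to 0.52, adjusted p = 0.807), and 37% of the 3′ windows of each of this pair occur in the other. Cyp4a10 and Cyp4a31 shared 5.99%. The Cyp4a sum was 3964 to 5813 in Rragc +/+ and 3859 to 7669 in Rragc S74N/+ kidneys.

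Cyp2u1, which hydroxylates long-chain fatty acids near the end of the chain, had the lowest adjusted p of the 32 genes. It stood at 162, 158, 122, 73.4 and 80.6 normalized counts in Rragc +/+ and at 44.8, 52.3, 65.0, 48.9 and 43.7 in Rragc S74N/+ kidneys. The groups did not overlap, and the highest mutant value lay below the lowest wild-type value. The means were 119 ± 41.7 and 50.9 ± 8.57 (SD, n = 5 each), and the log2 fold change was -1.15 (SE 0.23, 95% interval -1.63 to -0.67, limma adjusted p = 0.0090). It passed the threshold in all 24 alternatives, with adjusted p of 0.0054 to 0.0324 when single samples were left out. The wild-type values fell into the title number ranges, at 122 to 162 below 200 and 73.4 to 80.6 above it, and the log2 difference between genotypes was -1.44 in the first range and -0.72 in the second. None of its 3′ windows was shared with another gene.

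The 16 genes of the remaining 13 subfamilies held no call. Among the abundant ones, Cyp4b1, a fatty acid hydroxylase, stood at 1917 to 2911 in Rragc +/+ and 1664 to 2738 normalized counts in Rragc S74N/+ kidneys, with a log2 fold change of -0.19 (95% interval -0.50 to 0.12, limma adjusted p = 0.430). Cyp2e1, which oxidizes ethanol and acetone, stood at 926 to 1630 against 1050 to 1697, with 0.23 (-0.11 to 0.56, adjusted p = 0.386). The steroid hydroxylase gene Cyp2a4 had -0.43 (-1.07 to 0.21, adjusted p = 0.394) and the neighbouring coumarin hydroxylase gene Cyp2a5 had 0.52 (0.07 to 0.98, 0.142), and 44.3% of the 3′ windows of Cyp2a4 occur in another gene, mostly Cyp2a5. Cyp2c23, an arachidonic acid epoxygenase, was at 84.5 to 271 against 42.0 to 194, with -0.74 (-1.46 to -0.01, adjusted p = 0.188).

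Of the sterol enzymes, Cyp27a1, the mitochondrial sterol hydroxylase, came nearest to a call. It stood at 74.95, 84.3, 69.1, 62.9 and 73.6 normalized counts in Rragc +/+ and at 24.2, 42.6, 49.99, 44.8 and 70.0 in Rragc S74N/+ kidneys. Of the mutant kidneys, 4 of 5 lay below every wild-type kidney, and the log2 fold change of -0.71 (95% interval -1.20 to -0.22) did not pass the test (limma adjusted p = 0.0752). It passed without Rragc S74N/+ replicate 5 (adjusted p = 0.0453). Cyp7b1, an oxysterol hydroxylase, stood at 76.8 to 167 against 31.7 to 314 and had a log2 fold change of -0.04 (-0.98 to 0.89, adjusted p = 0.965).

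Cyp26b1, which degrades retinoic acid, stood at 31.3, 49.9, 81.6, 4.37 and 45.8 against 97.9, 152, 44.99, 78.4 and 24.3 normalized counts. The groups overlapped widely, and the log2 fold change of 1.07 (-0.20 to 2.34) did not pass the test (limma adjusted p = 0.275). Without Rragc +/+ replicate 4, the lowest sample, it was 0.43. Cyp1b1, a target of the aryl hydrocarbon receptor, had a log2 fold change of -0.10 (-0.46 to 0.25, adjusted p = 0.738). The Cyp4f genes, which act on leukotrienes, had -0.01 (Cyp4f13), 0.08 (Cyp4f17) and -0.17 (Cyp4f16), with adjusted p of 0.967, 0.875 and 0.762. Cyp4v3, a fatty acid hydroxylase, had 0.18 (adjusted p = 0.708), Cyp2s1, expressed in epithelia, 0.03 (0.953), Cyp2f2, best known from lung airway cells, -0.34 (0.615) and Cyp20a1, an orphan P450, -0.40 (0.313). A p that misses the threshold does not show that the genotypes were alike, and the intervals give the differences these samples allow.

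Rragc S74N/+ replicate 1 stood apart from the other mutant kidneys in several P450 genes. It was the lowest of its group in 13 of the 32 genes and the lowest of all 10 samples in 9, and the next highest such counts were 8 (Rragc +/+ replicate 3) and 4 (Rragc +/+ replicates 3 and 4). Cyp4a12a was at 405 there and at 1592 to 2163 in the other mutant kidneys. Cyp4a14 was at 24.2 against 70.9 to 452, and Cyp7b1 at 31.7 against 84.3 to 314. Cyp2e1 was at 1050 against 1570 to 1697, Cyp2a4 at 111 against 175 to 467 and Cyp2c23 at 42.0 against 94.2 to 194. By contrast, Cyp2j5 (9233) was within the range of the other mutant kidneys and Cyp2a5 (194.9) too. Replicate 1 was the highest mutant kidney for Cyp2d26 (242), Cyp2d22, Cyp20a1, Cyp2f2, Cyp2j7, Cyp4f13, Cyp4f17 and Cyp4v3, so it was not low throughout. The same kidney had the lowest summed level of 8 markers of the late proximal tubule (segment S3), at 3778 against 6256 to 8690 in the other mutant and 6234 to 8392 in the wild-type kidneys. It also had the highest macrophage marker sum, 1418. Whether either bears on its P450 levels was not tested.

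**Figure D5:**
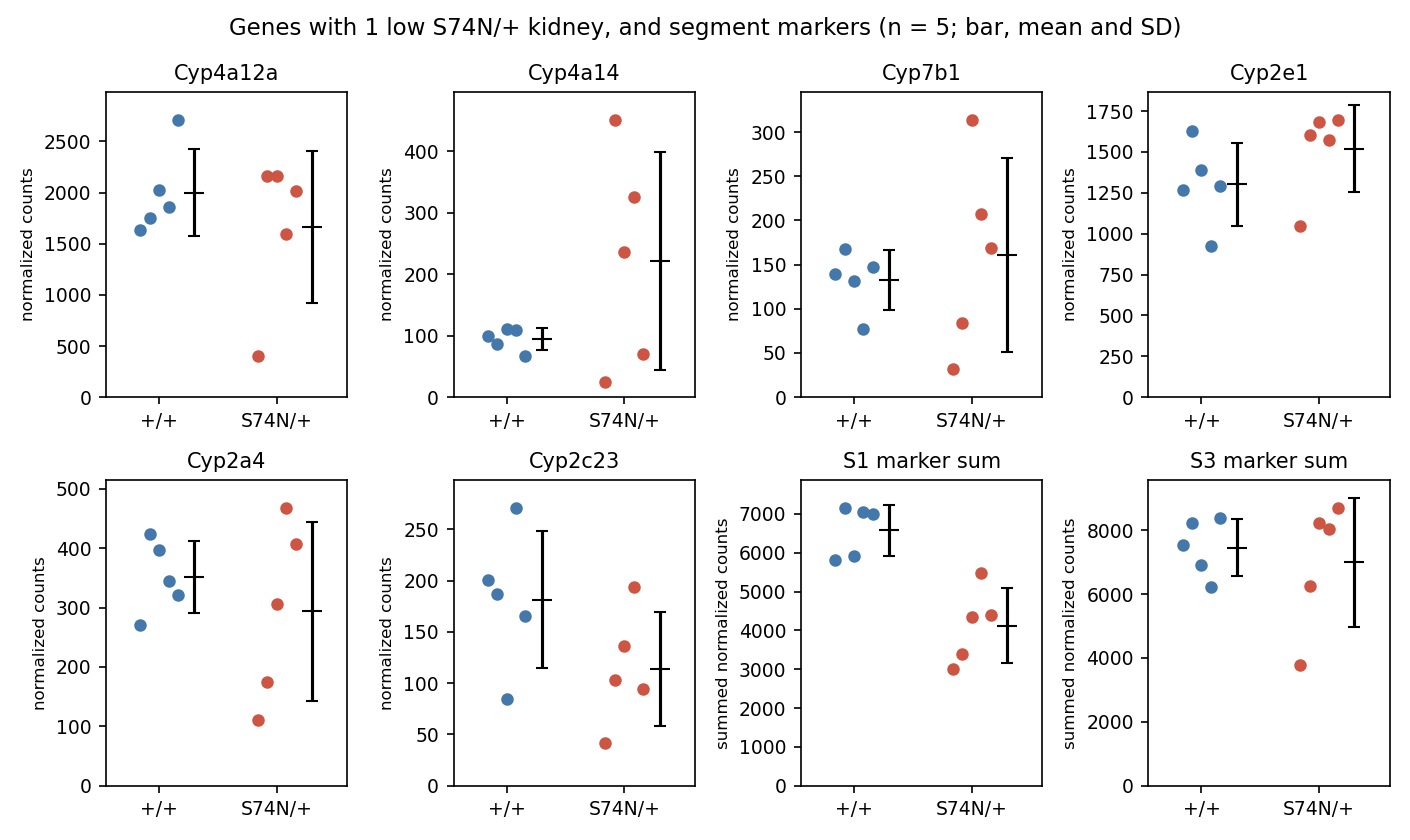
Normalized counts of 6 P450 genes, and summed normalized counts of 5 markers of proximal tubule segment S1 and 8 of segment S3 (y axes from 0), in each kidney, with Rragc +/+ in blue and Rragc S74N/+ in red, replicates 1 to 5 from left to right and bars for mean and SD. The first Rragc S74N/+ point is the lowest of its group in all panels, while the S1 sums do not overlap between genotypes.

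Some markers of other cells and tubule segments passed the test too, where 3.45% of all tested genes were called higher and 2.58% lower, and several of the lists held 1 called gene only. Of 5 markers of the early proximal tubule (segment S1), 3 were lower (Slc5a2, Gatm and Slc6a19) and 0 higher, with summed levels of 5804 to 7147 in Rragc +/+ and 2999 to 5482 in Rragc S74N/+ kidneys. None of the 8 S3 markers passed the test, and of the 24 general proximal tubule markers 3 were lower (Slc5a2, Slc7a8 and Slc7a9). Of 11 listed macrophage markers 4 were higher (C1qb, Lyz2, Aif1 and Mpeg1) and 0 lower, with sums of 636 to 815 and 989 to 1418. Of 9 fibroblast markers 3 were higher (Col1a1, Col1a2 and Pdgfra) and 0 lower, of 5 lymphocyte markers 1 was higher (Trac), and of 3 neutrophil markers 1 was higher (S100a9). Of 10 endothelial markers 1 was lower (Plvap), as was 1 of 7 collecting duct markers (Slc4a1). Their part in the P450 differences was not tested. None of 8 genes that respond to androgen in mouse kidney passed the test, with a median log2 fold change of 0.13, and the Y-linked genes searched were present in all 10 samples.

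Genes that work with or control P450 enzymes were read from lists chosen with earlier results of these data known. None of 8 redox partners passed the test, with a median log2 fold change of -0.16. Por, which passes electrons to microsomal P450 enzymes, had -0.09 (95% interval -0.34 to 0.15, limma adjusted p = 0.655). None of 12 genes of heme synthesis and breakdown passed (median -0.14). Of 17 listed regulators 1 was lower and 0 higher (median -0.19): Ppargc1a, a coactivator of nuclear receptors and mitochondrial genes, averaged 304 ± 27.5 in Rragc +/+ and 214 ± 42.9 in Rragc S74N/+ kidneys (SD, n = 5 each), without overlap, and its log2 fold change was -0.52 (SE 0.15, limma adjusted p = 0.0472). Ppara, the receptor behind Cyp4a induction, had -0.19 (-0.47 to 0.09, adjusted p = 0.393). Hnf4a, which maintains proximal tubule and hepatocyte genes, had -0.49 (-0.89 to -0.10, adjusted p = 0.117) and Ahr, the aryl hydrocarbon receptor, -0.10 (-0.89 to 0.69, adjusted p = 0.899).

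Of 22 PPARα targets outside the P450 genes 2 were higher and 0 lower, with a median log2 fold change of 0.10. Acadm, a dehydrogenase of medium-chain fatty acid oxidation, averaged 1446 ± 184 in Rragc +/+ and 2271 ± 299.8 in Rragc S74N/+ kidneys (SD, n = 5 each) without overlap, with 0.65 (SE 0.12, limma adjusted p = 0.0080). Vnn1, a pantetheinase, averaged 219 ± 53.6 and 370 ± 76.0 (SD, n = 5 each), with 0.76 (SE 0.19, adjusted p = 0.0271). Of 15 listed epoxide hydrolases and eicosanoid enzymes 1 was lower and 0 higher (median 0.04). That gene was Tbxas1, thromboxane synthase, at 52.3 ± 17.7 and 16.9 ± 7.68 (SD, n = 5 each) without overlap. Its log2 fold change was -1.70 (SE 0.38, limma adjusted p = 0.0176). Thromboxane synthase is itself a P450 enzyme, but its symbol does not start with Cyp. Tbxas1 is therefore not in the counts, sums and rankings of P450 genes given here. The epoxide hydrolases Ephx1 and Ephx2, of which the latter hydrolyses the products of Cyp2j and Cyp2c enzymes, had 0.43 (0.01 to 0.85, adjusted p = 0.182) and 0.09 (-0.25 to 0.43, adjusted p = 0.767). None of 3 listed targets of the aryl hydrocarbon receptor passed the test.

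The genes whose level followed Cyp2u1 or Cyp2d26 most closely over the 10 samples were found by Pearson's r of log2(normalized count + 1) across the whole table, as a description. The genotype difference and the libraries are common to all 10 points. For Cyp2u1 they were Alkbh6 (r = 0.97), Cdkn1b (0.95) and Ripor1 (0.95). For Cyp2d26 they were Pbxip1 (0.96), Rnf208 (0.96) and Ppp1r10 (0.94). None of these is a P450 gene.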

How the data were processed

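Whole kidney RNA of 10 samples, 5 per genotype, was made into QuantSeq 3′ mRNA libraries. Per the labels and the study's methods, the authors aligned reads to GRCm39 with TopHat2 2.0.10 and took sense-strand counts of each gene with HTSeq 0.6.1. The deposited signal values are normalized counts, that is, read counts over a size factor that the authors set for each sample. Genes without a row in it were not analysed here.

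Because the values are not raw counts, log2(normalized count + 1) entered a limma 3.58.1 model (R 4.3.3) of genotype alone, with an eBayes variance trend and two-sided p-values adjusted by Benjamini-Hochberg over 13236 genes at a threshold of 0.05. Genes needed at least 5 normalized counts in at least 5 samples, which removed 63. Fold changes on this scale understate those of low genes. In 8 samples 100% of the values came out as whole reads (tolerance 0.001 reads), and edgeR 4.0.16 (851 genes called) and DESeq2 1.42.0 (1402) were run on these as alternatives. The columns of Rragc S74N/+ replicate 3 and Rragc +/+ replicate 5 had steps too near 1 for that. The count models thus rest on 4 samples per group. In each of the 28 pairs of these 8 samples, reads differed by more than sampling noise (lowest chi-square over its degrees of freedom, 4.29).

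Replicate numbers follow the order of deposit. The members, the gene lists and the rule for named genes (every called member, the 10 of highest mean, and the others of a subfamily with a call) were chosen with earlier results of these data known, and the remaining members are given so that all are accounted for. Scripts were tested on simulated data. Shared 3′ windows were counted on GENCODE transcripts of GRCm38, in which all 32 genes matched, and promoters came from RefSeq with build GRCm38.p6, which held 20 of the 32 genes. Alternatives were other pseudocounts, filters, scalings, eBayes settings, a title number term, a stricter threshold, count models and leaving out each sample. The genes that followed Cyp4a10 most closely are not reported here.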

Additional observations from a re-analysis of the deposited data

Results flagged for a closer look

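In 66 groups of 5 samples (each P450 gene and the P450 sum in each genotype), a single sample lay far from the other 4 in 3 groups, and chance alone gives about 1 in 20, or 3.3. Cyp2e1 was at 1050 normalized counts in Rragc S74N/+ replicate 1, where the other 4 mutant kidneys lay between 1570 and 1697. Cyp2j9, a gene of low level, was at 30.0 in Rragc S74N/+ replicate 3, against 9.69 to 15.5. Cyp4a31 was at 2996 in Rragc S74N/+ replicate 4, against 1971 to 2228, and that kidney also had the highest P450 sum, 32125.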

How the results depend on the processing

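The count of P450 genes higher in Rragc S74N/+ kidneys was 3 and moved to 5 when samples were scaled to equal totals, to equal totals without mitochondrial genes, or with the title number range as a term. It moved to 0 with eBayes without the trend and at an adjusted p under 0.01, and to 1 with limma on the 8 samples with recovered reads. It ran from 1 (without Rragc +/+ replicate 2) to 6 (without Rragc S74N/+ replicate 1) when single samples were left out. The count lower was 2 and moved to 1 without the trend, at an adjusted p under 0.01, with edgeR and with limma on 8 samples, and it ran from 1 (without Rragc +/+ replicate 1, 2 or 4 or Rragc S74N/+ replicate 4) to 2. DESeq2 on 8 samples called 6 P450 genes and edgeR 3 (Cyp2j13, Cyp2j5 and Cyp2u1). Over all genes, 457 were higher and 341 lower. These became 718 and 225 with equal totals, 241 and 150 without the trend, 99 and 88 at an adjusted p under 0.01, and 762 and 640 with DESeq2. They ran from 186 to 503 higher and from 125 to 424 lower when single samples were left out, with counts moved by over 1.5 times without Rragc +/+ replicate 1, 2 or 4 or Rragc S74N/+ replicate 5 in both directions and without Rragc S74N/+ replicate 4 in the higher one. The share of calls that were higher was 57.3%, but 76.1% with equal totals and 68.9% with equal totals without mitochondrial genes. The difference of the mean P450 sum between genotypes was 5041 normalized counts and 3656 to 6322 when single samples were left out.

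Cyp2u1 passed in all 24 alternatives. Cyp2j13 was lost without the trend (adjusted p = 0.0544) and at an adjusted p under 0.01. Some fold changes of genes without a call changed sign. Cyp2j7 became -0.0020 with a pseudocount of 0.5, -0.0014 with edgeR, -0.012 with DESeq2 and -0.20 with limma on 8 samples, and ran from -0.20 to 0.41 when single samples were left out. Cyp2s1 became -0.024 with edgeR, -0.032 with DESeq2 and -0.062 with limma on 8 samples (-0.085 to 0.13 with single samples left out). Cyp4a12b became 0.067 with edgeR and 0.057 with DESeq2 (-0.36 to 0.024). Cyp4f13 became 0.064 with equal totals, 0.0032 with equal 75th percentiles, 0.027 with equal totals without mitochondrial genes, 0.065 with edgeR, 0.055 with DESeq2 and 0.034 with limma on 8 samples (-0.097 to 0.063). Cyp7b1 became 0.034 with equal totals (-0.38 to 0.44). Cyp4f17 ran from -0.036 to 0.16 and Cyp4a12a from -0.60 to 0.0019. The cause was not tested. A fit with the level of Xist as a term was not run, since Xist has no row in the table. No paired analysis was run, since the labels name no pairing of samples between genotypes. Depth limits what the 15 genes under 100 normalized counts can show.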
